A study of Mus musculus with 12 samples.

Results

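Sox7, Sox17, Sox18, Ets1, Ets2, Erg, Fli1, Elk3 and Foxq1 encode DNA-binding transcription factors that are expressed by endothelial cells, the cells that line vessels. These 9 genes were followed in brain vessels with and without Notch3. They were taken by name, with earlier results of these data known, and every probe set annotated to exactly 1 of them was used. The array held 22 such probe sets among 45037 that are not controls, and the 9 genes were among 18193 named ones. To be tested, a probe set had to lie above 3.27, the median of all log2 values, on 3 or more of the 12 arrays. By this filter 20 of the 22 probe sets, from 9 of 9 genes, were tested. The other 2 were 1437809_x_at of Ets2, at 2.18 to 2.22 on the 12 arrays, and 1445886_at of Elk3, at 2.56 to 2.67.

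RNA came from microvascular fragments of the cerebellum and of the cerebrum of 2-month-old mice on the C57BL/6 strain, hybridised to Affymetrix Mouse Genome 430 2.0 arrays. The 4 groups, of 3 arrays each, were Notch3 knockout cerebellar, control cerebellar, Notch3 knockout cerebral and control cerebral vessels. Controls were wildtype littermates, and the design text gives 3 mice per genotype. Arrays with the same replicate number and genotype were read as 1 mouse, an assumption that the labels leave unsaid. The sources used here do not give the knockout allele or the way the fragments were isolated.

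Notch3 is a receptor of mural cells, the smooth muscle cells and pericytes outside the endothelium, so the comparison asks whether endothelial regulators differ where a receptor of the neighbouring cell type is missing. ETS factors share a DNA-binding domain that reads a GGAA core, and Erg and Fli1 keep endothelial cells in their differentiated state. Sox7, Sox17 and Sox18 form the F group of SOX factors, which act in the growth of arteries and lymphatic vessels, partly together with Notch signalling in endothelial cells. Foxq1 is a forkhead factor enriched in the endothelium of the brain.

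The labels and the preparation were checked first. Notch3 probe set 1421965_s_at read 2.48 to 3.58 in knockout cerebellar and 2.48 to 3.15 in knockout cerebral arrays, against 11.73 to 12.02 and 10.84 to 11.61 in the control groups. Arrays of 1 group correlated with r between 0.992 and 0.996 across probe sets. Xist, a transcript of females, was above the median of all values in 2 of 3 mice of each genotype. Endothelial markers, such as Cldn5 of tight junctions and Cdh5 of adherens junctions, were above the filter for 11 of 11 genes found on the array. Their summed level, as log2, was 17.86 to 18.00 in knockout cerebellar, 17.86 to 17.90 in control cerebellar, 17.92 to 17.94 in knockout cerebral and 17.89 to 17.91 in control cerebral arrays. The groups lay close together, and 0 of the 11 markers had an adjusted p under 0.05 by limma between genotypes in either region (0 at an unadjusted p under 0.05 in cerebellar and 1 in cerebral vessels).

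The knockout was then compared with the control within each region. Ets1 fell in both regions on 4 of 4 probe sets, and Sox18 and 1 of 2 probe sets of Sox17 rose in cerebellar vessels, by 0.47 and 0.30 log2. A probe set is said to be called where limma's Benjamini-Hochberg adjusted p, taken over all 22767 tested probe sets, was under 0.05. In cerebellar vessels 6 of 20 member probe sets were called, 2 higher and 4 lower, where 3.49% of all tested probe sets were called (0.835% higher and 2.65% lower). In cerebral vessels 4 of 20 were called, 4 lower and each of Ets1, where 5.11% of all were called (1.89% higher and 3.22% lower). When each mouse was counted once, by averaging its regions, the same 4 probe sets of Ets1 were called, where 3.36% of all were (0.843% higher and 2.52% lower). The knockout and control arrays did not overlap for 8 of 20 probe sets in cerebellar vessels, 3 higher and 5 lower (9.5% and 11.1% of all), and for 9 of 20 in cerebral vessels, of which 3 were higher and 6 lower (9.41% and 13.8% of all). The median log2 fold change over the 20 probe sets was -0.01 in cerebellar and -0.07 in cerebral vessels, against 0.01 and -0.01 over all tested probe sets. Of the 9 genes, 6 (Sox7, Ets2, Erg, Fli1, Elk3 and Foxq1) had no called probe set in any of these 3 comparisons.

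Ets1, an ETS activator of genes for vessel growth and matrix breakdown that is also made by lymphocytes and smooth muscle cells, was read by 4 probe sets. Probe set 1422028_a_at read 5.63, 5.70 and 5.66 in knockout cerebellar arrays, against 9.55, 9.36 and 9.48 in control cerebellar arrays. In cerebral vessels it read 7.17, 6.34 and 6.30 in knockout arrays, against 10.33, 10.08 and 10.12 in control arrays. Every knockout array lay more than 2 log2 units below every control array of its region.

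Probe set 1422027_a_at behaved alike. It read 5.04, 4.56 and 4.54 in knockout cerebellar arrays, against 8.67, 8.27 and 8.29 in control cerebellar arrays. In cerebral vessels the values were 6.19, 6.16 and 5.72 in knockout arrays and 9.13, 8.75 and 8.56 in control arrays. The groups did not overlap in either region, and all these values lay above the filter level of 3.27.

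The other 2 probe sets of Ets1 showed a smaller step. Probe set 1452163_at read 13.20, 13.01 and 12.83 in knockout cerebellar arrays, against 14.05, 14.00 and 14.05 in control cerebellar arrays, and in cerebral vessels 13.51, 13.11 and 12.91 in knockout arrays, against 14.07, 14.10 and 14.15 in control arrays. Probe set 1426725_s_at, of a type that can match more than 1 transcript, read 12.49, 12.69 and 12.43 in knockout cerebellar arrays, against 13.45, 13.44 and 13.52 in control cerebellar arrays. In cerebral vessels it read 13.21, 12.71 and 12.23 in knockout arrays, against 13.60, 13.70 and 13.54 in control arrays. Knockout arrays again lay below every control array of their region, and knockout replicate 1 was the closest to the controls in cerebral vessels on 4 of 4 probe sets.

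**Figure D1:**
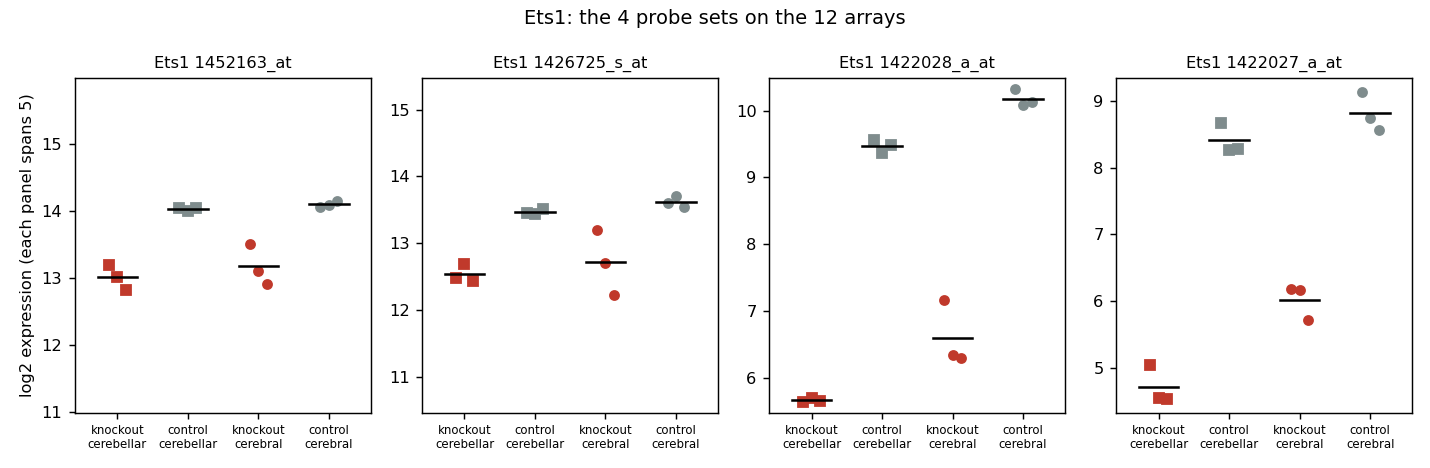
Log2 expression of Ets1 on its 4 probe sets (1 panel each, vertical axis in log2 units, each panel spanning 5) in the 12 arrays. Points are arrays (red knockout, grey control; squares cerebellar, circles cerebral) and lines are means of 3; the step between genotypes is between -1.02 and -0.90 on 1452163_at and 1426725_s_at and between -3.80 and -2.79 on the other 2.

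The fitted falls of Ets1 were of 2 sizes. In cerebellar vessels the log2 fold change was -3.80 on 1422028_a_at (SE 0.19, n = 3 arrays per group, limma adjusted p = 4.04e-06, 14.0-fold lower) and -3.70 on 1422027_a_at (SE 0.20, adjusted p = 5.45e-06). In cerebral vessels these were -3.58 (SE 0.19, adjusted p = 6.54e-06, 11.9-fold lower) and -2.79 (SE 0.20, adjusted p = 3.36e-05, 6.90-fold lower). Probe set 1452163_at gave -1.02 in cerebellar (SE 0.14, adjusted p = 0.00219) and -0.92 in cerebral vessels (SE 0.14, adjusted p = 0.00405), and 1426725_s_at gave -0.93 (SE 0.19, adjusted p = 0.0259) and -0.90 (SE 0.19, adjusted p = 0.0248). The largest and the smallest fall thus differed by 2.87 log2 in cerebellar and by 2.68 in cerebral vessels, several times the standard errors. With regions averaged within each mouse the 4 log2 fold changes were -3.69 (adjusted p = 0.000224), -3.24 (adjusted p = 0.000798), -0.97 (adjusted p = 0.0150) and -0.92 (adjusted p = 0.0236). The annotation pairs the 2 probe sets with the large step with one cDNA record and the other 2 with another, so each pair was designed on a record of its own. Whether the pairs read different transcripts of Ets1 was not tested.

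The calls of 1422028_a_at and 1422027_a_at held in every alternative setting run, in each region and on the mean per mouse. Those of 1426725_s_at were lost in cerebellar vessels without control replicate 1, 2 or 3 (adjusted p = 0.0724, 0.0754 and 0.0756) or knockout replicate 1 or 3 (0.0802 and 0.09999) and in cerebral vessels without control replicate 1, 2 or 3 (0.0740, 0.0747 and 0.0565) or knockout replicate 2 (0.0506). With only the arrays compared in the fit, 1452163_at and 1426725_s_at were not called in cerebral vessels (adjusted p = 0.0508 and 0.145). On the mean per mouse 1452163_at was not called without control mouse 1, 2 or 3 (adjusted p = 0.0622, 0.0622 and 0.0549) or knockout mouse 2 (0.0554), nor was 1426725_s_at (0.0870, 0.0889, 0.0689 and 0.0618). Both were also lost there without the filter (0.0685 and 0.0974) and with the replicate block (0.0514 and 0.0563), and without the filter 1426725_s_at was lost in cerebellar (0.0770) and cerebral vessels (0.0726).

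Levels of other cell types moved between the same arrays. Of 11 tested mural markers, such as Myh11, the smooth muscle myosin, and Higd1b of pericytes, 6 fell and 0 rose in cerebellar vessels (median -0.39), and 7 fell and 0 rose in cerebral vessels (median -0.48). Their summed level, as log2, was 16.91 to 17.02 in knockout cerebellar arrays, against 17.17 to 17.33 in control cerebellar arrays, and 16.66 to 16.70 in knockout cerebral arrays, against 16.94 to 17.04 in control cerebral arrays. Kcnj8 and Abcc9, also of pericytes, differed less than Higd1b. Kcnj8 averaged 11.33 in knockout against 11.36 in control cerebellar arrays, and 10.41 against 10.52 in cerebral arrays. Abcc9 averaged 13.33 against 13.43 in cerebellar and 12.43 against 12.41 in cerebral arrays. Of 11 leukocyte markers on the array 8 did not exceed the filter level on any of the 12 arrays, among them Cd3e and Cd3d of T cells and Cd79a of B cells, and 0 of the 3 tested were called in either region (1 at an unadjusted p under 0.05, in cerebral vessels). The 3 tested were Ptprc and, of B cells, Cd79b and Ms4a1. All 3 had positive values in cerebellar (median 0.23) and cerebral vessels (median 0.83). Cd79b averaged 4.66 in knockout against 4.06 in control cerebellar arrays, and 5.48 against 4.36 in cerebral arrays. Of 7 tested neuron markers 2 rose and 1 fell in cerebellar vessels (median 0.52), and limma called 0 in cerebral vessels (1 had an unadjusted p under 0.05). Gabra6, a receptor subunit of cerebellar granule neurons, rose by 1.43 log2 in cerebellar vessels (SE 0.12, adjusted p = 7.73e-05), Pvalb also rose, and Map2 fell, a call lost without single arrays (adjusted p of up to 0.156). Pvalb read 4.62 to 5.53 in knockout cerebellar arrays, against 2.62 to 3.43 in control cerebellar arrays. It would not have passed the filter without the knockout cerebellar arrays. Its call thus rests on the group where it was high and is given as a description. The summed level of neuron markers was 9.14 to 9.41 in knockout cerebellar arrays, against 8.93 to 9.17 in control cerebellar arrays, and 8.24 to 8.98 in knockout cerebral arrays, against 8.40 to 9.24 in control cerebral arrays, with Tubb3, Nefm and Neurod6 above the filter level on none of the 12. Of 7 fibroblast markers 3 had positive values in cerebellar (median -0.19) and 3 in cerebral vessels (median -0.02). Col3a1, a collagen, rose in cerebellar (0.82) and cerebral vessels (0.71), and Slc6a13 fell in cerebral vessels. Each of these calls was lost without some single array (adjusted p of up to 0.0767, 0.108 and 0.148). Col1a2, another collagen, averaged 11.05 in knockout against 11.53 in control cerebellar arrays, and 10.58 against 11.04 in cerebral arrays. It was called lower on the mean per mouse (limma adjusted p = 0.0497), a call that held in 5 of 14 alternative settings. The summed fibroblast level was 13.26 to 13.73 in knockout cerebellar arrays, against 13.07 to 13.40 in control cerebellar arrays, and 12.98 to 13.09 in knockout cerebral arrays, against 12.60 to 12.88 in control cerebral arrays. The part of these other cell types in the changes of Ets1, Sox17 and Sox18 was not tested. In these bulk samples, fewer cells of a type and less RNA per cell cannot be told apart.

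**Figure D2:**
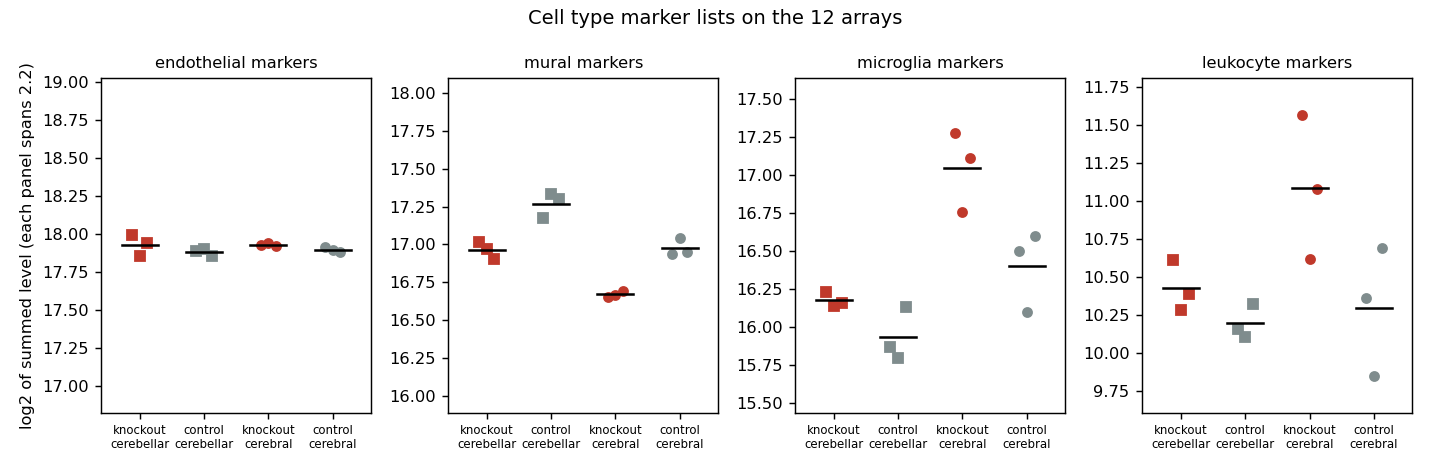
Summed level of the endothelial, mural, microglia and leukocyte marker lists (log2 of the sum over genes, each panel spanning 2.2) in the 12 arrays, with points, colours and lines as for Ets1. Endothelial markers lay within 17.86 to 18.00 in the 12 arrays, mural markers were lower in knockout than in control arrays of each region, and microglia markers were highest in knockout cerebral arrays (16.76 to 17.28).

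Genes with a profile most like that of Ets1 were found by the root mean square difference of centred log2 values over the 12 arrays. For 1452163_at these were Atf7ip, a cofactor of transcription (0.148), Fosl2, an AP-1 factor (0.167), and Mb21d2 (0.182), and for 1426725_s_at they were Yipf4 (0.197), Atf7ip (0.205) and Mb21d2 (0.222). The spread of the 2 Ets1 profiles themselves was 0.51 each. For 1422028_a_at the nearest were C1s1, a complement protease (0.574), Susd5 (0.633) and Kcnma1, the pore of a calcium-activated potassium channel (0.705), and for 1422027_a_at the same genes were nearest, at 0.554, 0.675 and 0.536, against an own spread of 1.90 and 1.71.

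Ets1 lies on chromosome 9 beside Fli1, its neighbour on one side. Of the 6 nearest protein-coding genes, 3 to each side, 3 were tested (Fli1, Kirrel3 and Dcps), and limma called 0 of them in either region. Their log2 fold changes were 0.20, -0.21 and -0.27 in cerebellar and 0.13, -0.15 and -0.38 in cerebral vessels. Notch3 lies on another chromosome, 17, as does none of the 9 genes.

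Fli1, which shares many endothelial targets with Erg, was not called between genotypes on either probe set. Probe set 1433512_at read 11.76, 12.17 and 12.02 in knockout cerebellar arrays, against 11.79, 11.74 and 11.83 in control cerebellar arrays, and the groups overlapped. Probe set 1422024_at read 11.16, 11.12 and 11.17 in knockout cerebral arrays, against 10.85, 10.94 and 10.92 in control cerebral arrays. These cerebral groups did not overlap, but the log2 fold change of 0.25 (SE 0.08) had an adjusted p of 0.122 by limma. In cerebellar vessels the same probe set differed by 0.06 (95% interval -0.13 to 0.24).

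Erg, which keeps endothelial junctions and identity, was not called between genotypes. Probe set 1440244_at read 13.61, 13.62 and 13.50 in knockout cerebellar arrays, against 13.62, 13.65 and 13.52 in control cerebellar arrays, and 13.50, 13.62 and 13.57 in knockout cerebral arrays, against 13.66, 13.71 and 13.58 in control cerebral arrays. The groups overlapped in both regions, and the log2 fold change was -0.02 (95% interval -0.16 to 0.12) and -0.09 (-0.23 to 0.05). Its second probe set, 1425370_a_at, lay at 3.51 to 4.28 on the 12 arrays, near the filter level.

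Promoter sequences were available for 3 of the 9 genes (Ets2, Erg and Elk3), with 5 windows of 250 bases before a start site, from RefSeq on GRCm38.p6. Both strands were searched for GGAA, the core read by ETS factors, AACAAT, a word read by SOX factors, and TGGGAA, a word read by RBPJ, the DNA-binding partner of Notch receptors, which itself contains GGAA. Of 32851 promoters of this length 93.4% held GGAA, 9.42% AACAAT and 21.6% TGGGAA. Of the 5 windows 1, of Erg, held both AACAAT and TGGGAA, and it is shown for that reason. Capitals mark these matches, which lie on the other strand and so read ATTGTT and TTCCCA here. A match of letters is a description of the window.
Erg, chr16:95459349-95459598, minus strand: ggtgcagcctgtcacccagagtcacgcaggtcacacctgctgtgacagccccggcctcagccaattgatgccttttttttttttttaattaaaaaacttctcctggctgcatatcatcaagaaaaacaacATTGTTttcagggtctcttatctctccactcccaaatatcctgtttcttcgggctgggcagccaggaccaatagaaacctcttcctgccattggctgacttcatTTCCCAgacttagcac

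Ets2, a close relative of Ets1 that is switched on by MAP kinase, had negative values that limma did not call. Probe set 1416268_at read 12.67, 12.18 and 12.20 in knockout cerebellar arrays, against 12.94, 12.65 and 12.75 in control cerebellar arrays, and 12.76, 12.52 and 12.40 in knockout cerebral arrays, against 12.96, 12.70 and 12.88 in control cerebral arrays. The groups overlapped by 1 array in each region, and replicate 1 was the highest on this probe set in each of the 4 groups. The log2 fold changes were -0.43 (SE 0.15, adjusted p = 0.169) and -0.28 (SE 0.15, adjusted p = 0.333). Probe set 1447685_x_at, of a type whose probes may also bind other transcripts, gave -0.60 (SE 0.21, adjusted p = 0.183) and -0.52 (SE 0.21, adjusted p = 0.206), and its cerebral groups did not overlap. Without knockout cerebellar replicate 1, 1416268_at was called in cerebellar vessels (-0.59, adjusted p = 0.0420). With the replicate block, where the numbers are not shown to pair mice of different genotype, both probe sets were called in cerebellar vessels (adjusted p = 0.0238 and 0.00734) and 1447685_x_at in cerebral vessels (0.0107).

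Elk3, a ternary complex factor that represses genes until MAP kinase phosphorylates it, differed little between genotypes. Its 3 tested probe sets, 1448797_at, 1435143_at and 1417662_at, gave log2 fold changes of 0.09, -0.08 and -0.00 in cerebellar and -0.06, -0.09 and 0.06 in cerebral vessels. Their 95% intervals lay between -0.26 and 0.25 in cerebellar and between -0.26 and 0.20 in cerebral vessels, and the groups overlapped on 3 of 3 probe sets in both regions.

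The SOX factors of the F group were higher in knockout vessels where they were called, except for Sox7 with array weights. Sox18, in which mutations cause defects of lymphatic vessels and hair, read 13.38, 13.38 and 13.48 in knockout cerebellar arrays, against 13.03, 13.01 and 12.79 in control cerebellar arrays. In cerebral vessels its only probe set, 1449135_at, read 13.30, 13.51 and 13.45 in knockout arrays, against 13.22, 13.17 and 13.10 in control arrays. The groups did not overlap in either region. The log2 fold change was 0.47 in cerebellar vessels (SE 0.08, n = 3 arrays per group, adjusted p = 0.0100, 1.39-fold higher) and 0.26 in cerebral vessels (SE 0.08, adjusted p = 0.109). The cerebellar call was lost with only the arrays compared in the fit (adjusted p = 0.0577). On the mean per mouse the log2 fold change was 0.36 (adjusted p = 0.0559), and it was called there in 5 of 14 alternative settings.

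Sox17, a factor of arterial endothelium that takes part in arterial identity, was read by 2 probe sets. The probes of 1429177_x_at, like those of 1438558_x_at of Foxq1, are of the type that may also bind other transcripts. Probe set 1429177_x_at read 14.35, 14.43 and 14.32 in knockout cerebellar arrays, against 14.13, 14.06 and 14.01 in control cerebellar arrays, and 14.38, 14.55 and 14.36 in knockout cerebral arrays, against 14.20, 14.23 and 14.20 in control cerebral arrays. The 3 knockout arrays lay above the 3 control arrays in each region. It rose by 0.30 log2 in cerebellar vessels (SE 0.06, adjusted p = 0.0287, 1.23-fold) and had a log2 fold change of 0.22 in cerebral vessels (SE 0.06, adjusted p = 0.0799). This cerebellar call was lost without control replicate 2 or 3 (adjusted p = 0.0898 and 0.0857) or knockout replicate 1, 2 or 3 (0.0707, 0.0910 and 0.0605), and with only the arrays compared in the fit (0.0827). In cerebral vessels it was called in 2 of 22 alternative settings, a trended robust variance (0.0448) and array weights (0.0402). On the mean per mouse the log2 fold change was 0.26 (adjusted p = 0.0750), called in 1 of 14 alternative settings.

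Probe set 1421657_a_at of Sox17 had positive values, and its call depended on the setting. It read 12.30, 12.34 and 12.34 in knockout cerebellar arrays, against 11.80, 11.87 and 11.59 in control cerebellar arrays, and 11.94, 12.52 and 12.44 in knockout cerebral arrays, against 11.96, 11.98 and 11.79 in control cerebral arrays. Only the cerebral groups overlapped, through knockout replicate 1. Its log2 fold change was 0.57 in cerebellar (SE 0.14, adjusted p = 0.0534) and 0.39 in cerebral vessels (SE 0.14, adjusted p = 0.146). It was called in cerebellar vessels in 9 of 21 alternative settings. These were the filter at the 75th percentile (adjusted p = 0.0318), arrays centred on their medians (0.0472), a trended robust variance (0.0445), array weights (0.0419), only the arrays compared (0.0339), the replicate block (0.0479), the mouse as random replicate block (0.0499), and the runs without knockout cerebral replicate 1 or 2 (0.00560 and 0.0433), which enter only the estimate of spread. It was also called in cerebral vessels without knockout replicate 1 (0.57, adjusted p = 0.0125).

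Sox7, the third member of the group, had probe sets that disagreed in direction and were not called, except with array weights. Probe set 1416564_at read 10.72, 10.75 and 10.77 in knockout cerebellar arrays, against 10.84, 10.60 and 10.18 in control cerebellar arrays, and 10.68, 10.82 and 10.78 in knockout cerebral arrays, against 10.85, 10.77 and 10.63 in control cerebral arrays. Both pairs of groups overlapped. Probe set 1432495_at read 6.45, 6.28 and 6.31 in knockout cerebellar arrays, against 7.14, 6.71 and 6.45 in control cerebellar arrays, and 6.13, 6.38 and 5.99 in knockout cerebral arrays, against 6.71, 6.72 and 6.46 in control cerebral arrays. On this probe set the groups did not overlap, in cerebellar vessels by less than the last digit shown. Its log2 fold change was -0.42 (SE 0.16, adjusted p = 0.238) and -0.47 (SE 0.16, adjusted p = 0.146), and that of 1416564_at was 0.21 (95% interval -0.10 to 0.51) and 0.01 (-0.30 to 0.31). With array weights limma called 1432495_at lower in cerebral vessels (-0.54, adjusted p = 0.0422).

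Foxq1 was not called between genotypes. Probe set 1438558_x_at read 13.19, 13.29 and 13.28 in knockout cerebellar arrays, against 13.40, 13.04 and 12.96 in control cerebellar arrays, and 13.55, 13.46 and 13.41 in knockout cerebral arrays, against 13.56, 13.47 and 13.19 in control cerebral arrays. The groups overlapped in both regions. The log2 fold changes were 0.12 and 0.07 on this probe set and 0.25 and -0.08 on 1422735_at, in cerebellar and cerebral vessels, with the smallest adjusted p at 0.387.

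**Figure D3:**
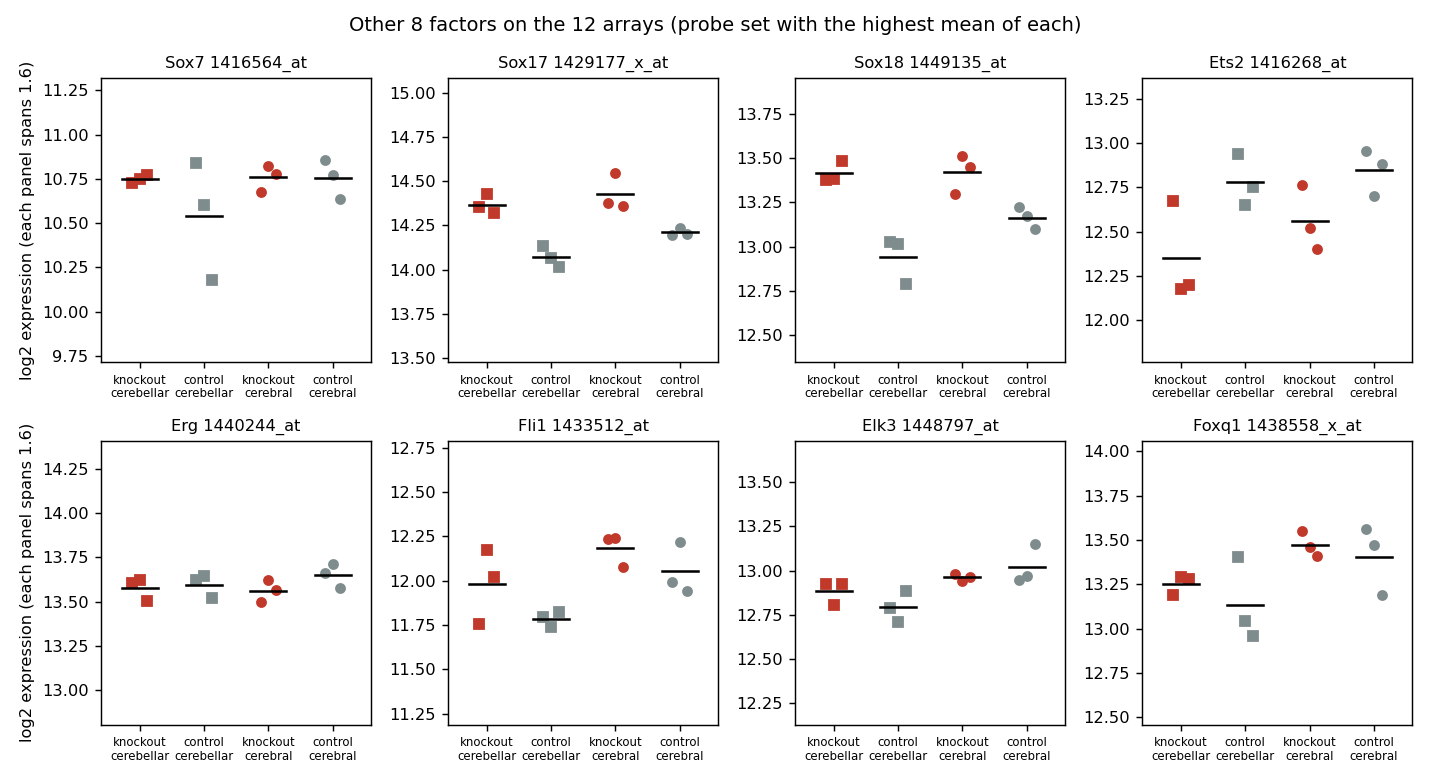
Log2 expression of the 8 factors other than Ets1 in the 12 arrays, on the probe set of each with the highest mean (each panel spans 1.6 log2 units), with points, colours and lines as for Ets1. Knockout arrays of Sox17 and Sox18 lie above the control arrays of their region, whereas the groups overlap for the other 6 genes on these probe sets.

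Profiles most like those of the called SOX probe sets were found with the same measure. For Sox18 (own spread 0.213) they were those of Lims2, an adhesion protein (0.0698), Ramp2, a partner of the adrenomedullin receptor (0.0755), and Paqr7 (0.0813). Lims2 and Paqr7 were themselves called in cerebellar vessels (log2 fold change 0.51, adjusted p = 0.0225, and 0.42, adjusted p = 0.0392). They were picked for likeness to a called probe set on the same arrays, so these calls are not independent of that of Sox18. For 1429177_x_at of Sox17 (own spread 0.149) they were Ddx56 (0.0634), Mtmr10 (0.0705) and Zfp54 (0.0724), of which none was called between genotypes in either region. Of the 4 tested neighbours of Sox17 on chromosome 1 and the 4 of Sox18 on chromosome 2, 0 were called in either region.

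**Figure D4:**
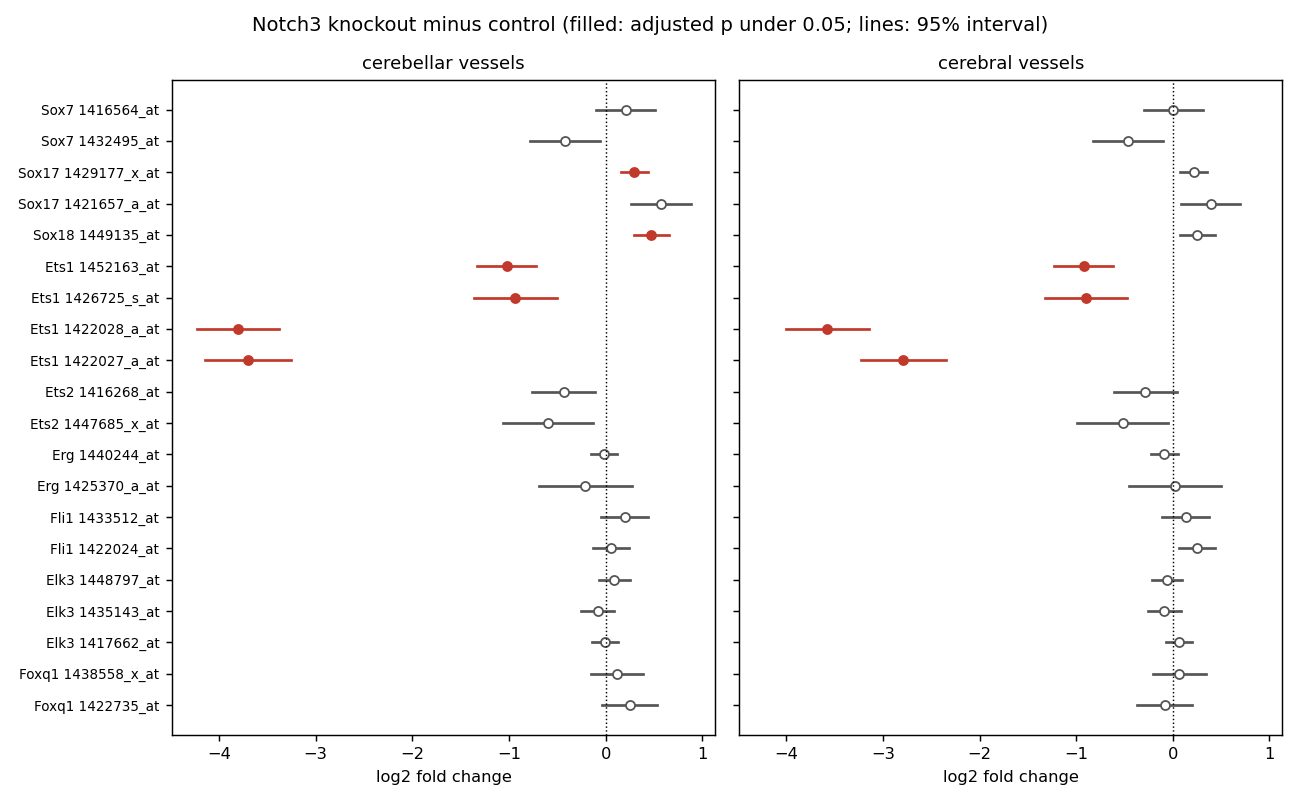
Log2 fold change between Notch3 knockout and control for the 20 tested probe sets, in cerebellar vessels (left) and cerebral vessels (right), with 95% intervals; filled points have a limma adjusted p under 0.05. The 4 probe sets of Ets1 lie between -3.80 and -0.90, and the other 16 lie between -0.60 and 0.57.

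The effect of the knockout was next compared between regions by the interaction of genotype and region. None of the 20 probe sets was called by limma, and 1 had an unadjusted p under 0.05; over all tested probe sets 0.0264% were called (0.0132% with a positive and 0.0132% with a negative difference), and 4.33% had an unadjusted p under 0.05. That 1 was 1422027_a_at of Ets1, which fell by 0.91 more in cerebellar vessels (95% interval 0.28 to 1.54, unadjusted p = 0.00901). The other probe sets of Ets1 differed by -0.10, -0.03 and -0.23, with intervals that held 0. For Sox18 the cerebellar effect was larger by 0.22 (95% interval -0.04 to 0.47) and for 1429177_x_at of Sox17 by 0.08 (-0.12 to 0.28). The calls of Sox17 and Sox18 in cerebellar vessels are therefore not shown to differ from the cerebral values.

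Regions were also compared within each genotype, where both regions of a mouse form a pair. Fli1 was lower in cerebellar than in cerebral vessels of both genotypes on 1422024_at, and Ets1 was lower in cerebellar vessels of knockout mice on 2 probe sets. In knockout mice 3 of 20 member probe sets were called, all lower, where 5.03% of all were called (2.63% higher and 2.4% lower), and in control mice 1 of 20, where 1.49% were (0.264% lower). Cerebellar and cerebral arrays of control mice did not overlap for 10 of 20 probe sets, 0 higher and 10 lower, where 8.86% of all were higher and 10.2% lower without overlap. Those of knockout mice did not overlap for 6 of 20, 0 higher and 6 lower, where 10.8% and 12.5% of all were. With the mouse as a replicate block, 4 member probe sets were called in knockout mice and 2 in control mice. The same fit called 2447 probe sets in all in knockout mice, against 1145 without it, and 1107 in control mice, against 340. The median over the 20 probe sets was -0.17 in knockout and -0.19 in control mice, against 0.00 and -0.02 over all tested probe sets, and 17 and 19 of the 20 values were negative.

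Probe set 1422024_at of Fli1 read 10.26, 10.48 and 10.55 in knockout cerebellar arrays, against 11.16, 11.12 and 11.17 in knockout cerebral arrays. In controls it read 10.44, 10.45 and 10.23 in cerebellar arrays, against 10.85, 10.94 and 10.92 in cerebral arrays. Every cerebellar array lay below every cerebral array. The log2 fold change was -0.72 in knockout mice (SE 0.08, n = 3 arrays per group, adjusted p = 0.00193, 1.65-fold lower) and -0.53 in control mice (SE 0.08, adjusted p = 0.0160, 1.44-fold lower). The control call was lost without control cerebral replicate 1 or 3 (adjusted p = 0.0513 and 0.0589) and with only the arrays compared in the fit (0.0593). Probe set 1433512_at had -0.20 in knockout mice (adjusted p = 0.364) and -0.27 in control mice (adjusted p = 0.305).

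Fli1 is also active in blood cells and in microglia, the immune cells of brain tissue. Of 11 tested microglia markers 9 fell and 0 rose in cerebellar against cerebral vessels of knockout mice (median -1.27), and limma called 0 in control mice (8 had an unadjusted p under 0.05, median -0.61). Their summed level, as log2, was 16.14 to 16.23 in knockout cerebellar arrays, against 16.76 to 17.28 in knockout cerebral arrays, and 15.80 to 16.14 in control cerebellar arrays, against 16.10 to 16.60 in control cerebral arrays. Between genotypes 0 of 11 were called in cerebellar vessels (median 0.29, 1 at an unadjusted p under 0.05) and 4 rose in cerebral vessels (median 0.85), where 1422024_at of Fli1 also had its positive value. The 4 were C1qa, C1qc, Tmem119 and Trem2, and none of them was called when knockout cerebral replicate 1 or 3, or control cerebral replicate 1 or 2, was left out, with adjusted p-values of up to 0.0834, 0.120, 0.0656 and 0.153. C1qc and Trem2 also lost their call without some arrays of cerebellar vessels. The part of microglia in the values of Fli1 was not tested.

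By group mean, Ets1 was lowest in knockout cerebellar and next in knockout cerebral vessels, then came control cerebellar and, highest, control cerebral vessels, on 4 of 4 probe sets. In knockout mice the cerebellar vessels had a log2 fold change of -1.31 on 1422027_a_at (SE 0.20, adjusted p = 0.00691) and -0.94 on 1422028_a_at (SE 0.19, adjusted p = 0.0229) against cerebral vessels. The second call was lost without knockout cerebellar replicate 1, 2 or 3 (adjusted p = 0.0654, 0.0682 and 0.0678), without the filter (0.0674) and with only the arrays compared (0.132). In control mice the same probe sets gave -0.40 (SE 0.20, adjusted p = 0.412) and -0.71 (SE 0.19, adjusted p = 0.120), the second of which was called in 4 of 21 alternative settings. These were the run without knockout cerebral replicate 1 (adjusted p = 0.00663), array weights (0.0301), only the arrays compared (0.0436) and the mouse as random replicate block (0.0416). Neither 1452163_at (-0.17 in knockout and -0.07 in control mice) nor 1426725_s_at (-0.18 and -0.15) was called, though their control groups did not overlap. Mural markers went the other way between regions: 6 of 11 rose in cerebellar vessels of knockout mice and 5 of 11 in those of control mice. Astrocyte markers (2 of 7 in knockout and 2 of 7 in control mice), neuron markers (3 of 7 and 2 of 7) and fibroblast markers (3 of 7 and 2 of 7) were also called higher in cerebellar vessels, with 0 called lower. Among the neuron calls in knockout mice, that of Pvalb again rests on the group where it was high. The part of these other cell types in the region values of Ets1 and Fli1 was not tested.

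Elk3 and Foxq1 had no call between regions until the mouse was used as replicate block. Probe set 1435143_at of Elk3 read 11.39, 11.29 and 11.26 in knockout cerebellar arrays, against 11.71, 11.48 and 11.47 in knockout cerebral arrays, which do not overlap. Its log2 fold change of -0.24 (SE 0.08) had an adjusted p of 0.114 without the block and 0.0458 with it. Probe set 1422735_at of Foxq1 read 8.85, 8.74 and 8.52 in control cerebellar arrays, against 9.19, 8.99 and 9.17 in control cerebral arrays. Its -0.42 (SE 0.13) had an adjusted p of 0.170 without the block and 0.0495 with it. Sox7, Sox17, Sox18, Ets2 and Erg were not called between regions in either genotype, with or without the block.

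**Figure D5:**
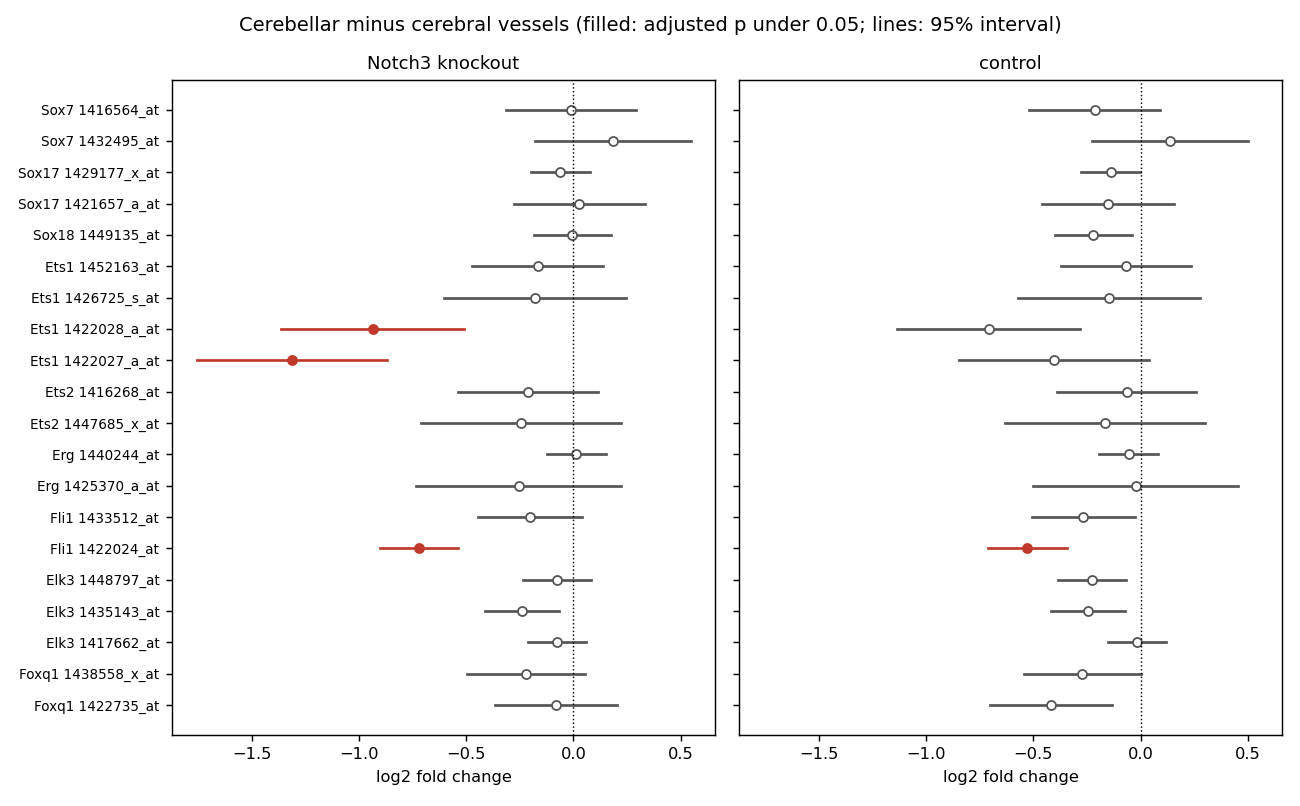
Log2 fold change of cerebellar over cerebral vessels for the 20 tested probe sets in knockout mice (left) and control mice (right), from the fit without the block, with 95% intervals; filled points have a limma adjusted p under 0.05. Fli1 1422024_at is filled in both panels (-0.72 and -0.53), and Ets1 1422027_a_at and 1422028_a_at in knockout mice (-1.31 and -0.94).

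Related genes were counted with 1 probe set per gene, that with the highest mean. Among other ETS genes 10 were tested, of which 0 were called in cerebellar vessels (2 at an unadjusted p under 0.05) and 1 fell in cerebral vessels (medians -0.02 and 0.02). That gene was Elf2, at -0.39 (SE 0.10, adjusted p = 0.0485), and its call held in 6 of 22 alternative settings and was lost without any 1 of 10 of the 12 arrays (adjusted p of up to 0.154). Spi1, an ETS factor of microglia and other myeloid cells, had a log2 fold change of -1.33 in cerebellar against cerebral vessels of knockout mice (SE 0.33, adjusted p = 0.0480), in 10 of 21 settings, and was not called without any 1 of 9 of the 12 arrays (adjusted p of up to 0.166).

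Among 9 other SOX genes, Sox6 fell in both regions, and with it Sox5 in cerebral vessels. Sox6, which acts in cartilage, muscle and nerve cell development, averaged 6.86 ± 0.37 in knockout cerebellar arrays, against 8.50 ± 0.17 in control cerebellar arrays, and 6.55 ± 0.08 in knockout cerebral arrays, against 8.15 ± 0.25 in control cerebral arrays (SD, n = 3 each). Its log2 fold change was -1.65 (SE 0.18, adjusted p = 0.000590) and -1.60 (SE 0.18, adjusted p = 0.000709), 3.13-fold and 3.03-fold lower, and it was called in 21 of 21 settings in each region. Sox5, its close relative, was at -0.63 in cerebellar (not called) and -0.73 in cerebral vessels (SE 0.18, adjusted p = 0.0440), a call that 8 of the 12 runs without 1 array lost (adjusted p of up to 0.140). The medians of the 9 genes were 0.01 and -0.02.

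Of 26 other endothelial transcription factors, Foxc2 was called lower in cerebellar and Gata2 higher in cerebral vessels, and in each region the other 25 of 26 were not called (medians -0.06 and -0.06). Unadjusted limma p was under 0.05 for 10 of 26 in cerebellar and 9 in cerebral vessels (15.9% and 19.3% of all tested probe sets). Groups did not overlap for 12 of 26 in each region (20.6% and 23.3% of all). Foxc2, a factor of lymphatic valves, lay at 3.03 to 3.05 in knockout cerebellar arrays, under the filter level, against 3.74 to 4.16 in control cerebellar arrays, at least 1.61-fold lower. It passed the filter through control arrays alone, so its call rests on the group where it was high and is given as a description. Gata2, which acts in endothelial and blood cells, averaged 11.98 ± 0.04 in knockout cerebral arrays, against 11.56 ± 0.18 in control cerebral arrays (log2 fold change 0.41, SE 0.09, adjusted p = 0.0268). Its call was lost without control cerebral replicate 1 or 3 or any 1 knockout cerebral array (adjusted p of up to 0.0883).

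Endothelial genes whose control regions are known to be bound by ETS or F-group SOX factors numbered 28, all tested. In cerebellar vessels 1, the endothelial receptor Notch4, rose and 0 fell, where 3.49% of all tested probe sets were called (0.835% higher and 2.65% lower). A positive log2 fold change was seen for 23 of 28 there (median 0.12). In cerebral vessels limma called 0, where 5.11% of all were called, and 18 of 28 were positive (median 0.03). Unadjusted limma p was under 0.05 for 6 of 28 in cerebral vessels, against 19.3% of all. Values of the general endothelial markers also leaned positive, with 10 of 11 in cerebellar (median 0.05) and 9 of 11 in cerebral vessels (median 0.03). The medians over all tested probe sets were 0.01 and -0.01. Notch4 averaged 11.57 ± 0.09 in knockout cerebellar arrays, against 11.06 ± 0.14 in control cerebellar arrays (log2 fold change 0.50, SE 0.09, adjusted p = 0.00935, 1.42-fold higher), and 11.38 ± 0.12 in knockout cerebral arrays, against 11.21 ± 0.02 in control cerebral arrays (0.17, not called). Notch4 lies on chromosome 17, as does the deleted gene Notch3, and the part of that shared chromosome in its value was not tested. Its cerebellar call was lost with only the arrays compared in the fit (adjusted p = 0.0672). The negative values of largest size belonged to Dll4 (-0.68 in cerebellar, adjusted p = 0.283, and -1.05 in cerebral vessels, adjusted p = 0.0727), an arterial Notch ligand, and to Efnb2 (-0.52, adjusted p = 0.138, and -0.59, adjusted p = 0.0737), a marker of arteries. Of 8 MAP kinase genes that act upstream of ETS factors, 0 were called in cerebellar vessels (1 at an unadjusted p under 0.05), and Spry4, a feedback inhibitor, fell by 0.66 in cerebral vessels (SE 0.13, adjusted p = 0.0167). The call of Spry4 was lost without control cerebral replicate 1 or 2 (adjusted p = 0.0508 and 0.0513).

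The promoter window of Notch4, from the same source, is shown as that of the only called gene among those bound by these factors. Capitals mark its 5 matches to GGAA, which read TTCC where they lie on the other strand.
Notch4, chr17:34564045-34564294, plus strand: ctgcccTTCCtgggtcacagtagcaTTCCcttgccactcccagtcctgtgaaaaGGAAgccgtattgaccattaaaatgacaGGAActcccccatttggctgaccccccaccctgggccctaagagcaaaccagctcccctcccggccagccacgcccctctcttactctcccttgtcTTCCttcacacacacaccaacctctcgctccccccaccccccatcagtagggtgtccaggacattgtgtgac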

How the data were processed

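The authors deposited log2 expression values, 1 per probe set, from GCRMA 2.32.0 per the submitters' processing notes, and these were used without rescaling. The sources used here give no slide, scan date or detection call, and the number of arrays limits the precision. Of 45101 probe sets, 34958 named 1 gene, 932 several and 9211 none, and 64 controls were left out.

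Two-sided tests came from lmFit and eBayes of limma 3.58.1 (R 4.3.3), with 4 group means over 12 arrays, or 3 against 3 means of regions per mouse, and Benjamini-Hochberg adjustment over 22767 probe sets. The procedure was tested on simulated data with independent noise on each array, so that test does not cover likeness between regions of a mouse. For regions, arrays with the same replicate number were taken as the same mouse, from the 3 mice per genotype of the design text. Their deviations from the group means correlated with r of 0.519, 0.675 and 0.555 in knockout and 0.404, 0.434 and 0.559 in control mice. Every probe set of the 9 genes was named. From other lists up to 4 genes with the largest change were named per comparison among the called ones, or up to 2 where none was called, and for called members the 3 nearest profiles. Other markers named as examples were picked with their values in view. The genes and lists were chosen with earlier results of these data known. Alternatives covered filter, probe set choice, scaling, variance model, array weights, arrays in the fit, blocks and leaving out each array or mouse.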

Additional observations from a re-analysis of the deposited data

How the results depend on the processing

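No called log2 fold change of a member changed sign under an alternative run. Of 120 member values over the 6 comparisons, 31 changed sign in some setting, 0 of them called in any setting; among these were Fli1 1422024_at in cerebellar vessels (-0.01 to 0.14), Foxq1 1438558_x_at in cerebral vessels (-0.04 to 0.15), Elk3 1448797_at in cerebral vessels (-0.10 to 0.01), the interaction of Ets1 1422028_a_at (-0.38 to 0.06) and the knockout regions of Ets1 1426725_s_at (-0.42 to 0.07). Counts of called member probe sets were within 1.5 times the reported count except as follows. With 1 probe set per gene, that with the highest mean, they were 3 in cerebellar and 1 in cerebral vessels, 2 on the mean per mouse and 0 between regions of either genotype. This setting kept 1433512_at of Fli1 and 1452163_at of Ets1, which were not called between regions among all probe sets either. It left out the probe sets of these genes that were called between regions. With only the arrays compared the cerebral count was 2, without the filter the count on the mean per mouse was 2, and with array weights the region count in controls was 2. Over all probe sets, calls without the filter were 518 (cerebellar), 711 (cerebral), 386 (mean per mouse), 576 (regions, knockout), 139 (regions, control) and 3 (interaction). With 1 probe set per gene they were 495, 748 and 472 in the first 3 of these, and with only the arrays compared 453 (cerebellar), 460 (cerebral), 348 (regions, knockout) and 140 (regions, control). Array weights gave 2102 in cerebral vessels and 1037 between regions of controls, and the filter at the 75th percentile gave 0 for the interaction. The causes of these changes in the counts over all probe sets were not tested.

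Between genotypes, same-numbered samples share only a number: their deviations correlated with r of 0.203, -0.015 and -0.139 in cerebellar and 0.188, 0.107 and -0.030 in cerebral vessels. With the replicate block Ets2 was called in cerebellar vessels on 1416268_at (adjusted p = 0.0238) and 1447685_x_at (0.00734), and on 1447685_x_at in cerebral vessels (0.0107) and on the mean per mouse (0.0341), while Ets1 1452163_at and 1426725_s_at were not called on the mean per mouse (0.0514 and 0.0563). The replicate block gave 1790 calls in cerebral vessels and 1 for the interaction. Between regions, the mouse as replicate block gave 4 member calls in knockout mice and 2 in control mice, of 2447 and 1107 calls in all. As a random replicate block it gave 4 member calls in control mice, of 1086 in all, and 2629 calls in all in knockout mice.

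Leaving out 1 array or mouse gave 4 to 7 member calls in cerebellar vessels, 3 to 5 in cerebral vessels, 2 to 4 on the mean per mouse, 2 to 3 and 0 to 2 between regions of knockout and control mice, and 0 to 0 for the interaction. Over all probe sets these were 489 to 764, 621 to 1371, 349 to 619, 470 to 1610, 96 to 395 and 2 to 21. Centring arrays on their medians moved the share of lower calls to 65.6% (76.1% as deposited) in cerebellar, 48% (63.1%) in cerebral vessels and 64.8% (74.9%) on the mean per mouse. With 3 arrays per group, small differences are not resolved.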
